A study of Mus musculus with 35 samples.

Results

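The copper transporters *Slc31a1*, *Atp7a* and *Atp7b* and the metallothioneins *Mt1* and *Mt2* were followed across 35 RNA-seq libraries of transplanted mouse pancreatic tumor cells. The 5 genes were chosen by name from the 53465 genes of the count table, with the *Atp7b* values of the liver libraries of day 7 among the values the choice rested on, and each name matched 1 identifier. Those liver values are therefore given as a description with no test.

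Copper enters mammalian cells mainly through SLC31A1, a high-affinity importer of the plasma membrane also called CTR1. The P-type ATPases ATP7A and ATP7B load copper into enzymes of the secretory pathway and move it out of the cell when it is in excess. ATP7A does this in most tissues and is mutated in Menkes disease, whereas ATP7B is the form known from hepatocytes, where it sends copper to bile, and is mutated in Wilson disease. MT1 and MT2 are small cysteine-rich proteins that bind zinc and copper, and their genes are induced by metals through the zinc-sensing factor MTF1 and by glucocorticoids and oxidative stress.

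The tumor cells (KC-shSmad4) carried *Ptf1a*-Cre, the *RIK* allele (rtTA3 and the red reporter mKate2 after Cre) and a doxycycline-inducible, GFP-linked shRNA against *Smad4* in the *CHC* locus, and were transduced with firefly luciferase. The paper made its mice with 2 independent *Smad4* shRNAs and used independent cell lines in its transplants. The sample titles name neither the shRNA nor the line of a library. They were injected into the pancreas, the spleen (for liver metastases) or the tail vein (for lung metastases) of female *Foxn1nu* nude mice of 6 to 8 weeks, which lack mature T cells but keep other immune cells, and all hosts were fed doxycycline. In the groups labelled Smad4 on, doxycycline was withdrawn 4 weeks after injection for the pancreas, 5 weeks for the liver and 6 weeks for the lung groups, and mKate2+ cells were sorted 7 or 14 days later. On day 7 there were 3 pancreas, 2 liver and 4 lung libraries labelled Smad4 off and 2, 3 and 2 labelled Smad4 on, and on day 14 there were 2, 3 and 4 labelled off and 3, 3 and 4 labelled on.

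Library totals ran from 11885461 to 43571007 counts (median 19415320), and every member had at least 72 counts in every library. *Smad4* mRNA went against the labels: it was at 69.9 to 143 CPM (counts scaled to library size) in the 18 libraries labelled Smad4 off and at 14.8 to 22.4 CPM in the 17 labelled on, so groups keep the names on their labels and a positive fold change means a higher level where the label says on. In 10 libraries (4 liver, 6 lung) the mitochondrial gene *mt-Co3* had counts and in the other 25 it had none, a split that the labels do not mention. The split was not of this gene alone. *mt-Co2*, *mt-Atp6*, *mt-Atp8* and *mt-Nd4l* also had counts in all 10 and in 0 of the 25. *mt-Co1*, *mt-Nd4* and *mt-Cytb* had counts in every library. Whether annotation, counting or the samples differed between the 2 kinds of library was not tested. One liver library labelled Smad4 off on day 7 (replicate 2) was labelled paired-end and stood apart, with 7 fibroblast markers summing to 35782 CPM and 10 acinar markers to 475 CPM against at most 4307 and 16.9 CPM in the other liver libraries. In the 10 pancreas libraries these 2 sums ran from 8783 to 24253 and from 824 to 3985 CPM. The 7 tumor epithelial markers summed to 2584 CPM or more in every library.

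*Slc31a1* (ENSMUSG00000066150; GRCm38 chromosome 4, 62360727 to 62391769) was the most even of the 5 genes. Its level ran from 41.8 to 75.6 CPM with a median of 52.6, and the medians of the 10 pancreas, 11 liver and 14 lung libraries were 49.9, 60.5 and 52.8 CPM. The importer was called in none of the 18 tested comparisons, where a call needed a fold change above 2 and an adjusted p under 0.05 over all genes tested by edgeR. Between labels its log2 fold changes lay between -0.21 in pancreas on day 7 and 0.14 in pancreas on day 14. At an unadjusted p under 0.05 it stood in 1 comparison, pancreas labelled off on day 14 against day 7 (log2 -0.34, SE 0.10, adjusted p = 0.0626).

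*Atp7a* (ENSMUSG00000033792; chromosome X, 106027276 to 106124926) was likewise measured in every library without a call. It ran from 16.4 to 42.6 CPM (median 28.8), with medians of 33.1 CPM in pancreas, 26.9 in liver and 27.3 in lung. Its fold changes between labels ran from -0.29 (SE 0.13, adjusted p = 0.248) in pancreas on day 7 to 0.38 (SE 0.23, adjusted p = 0.651) in liver on day 14. Both genes were lower in the libraries with *mt-Co3* counts than in those without, over the 25 liver and lung libraries with group in the fit. This difference was -0.38 (SE 0.08, adjusted p = 0.00149) for *Atp7a* and -0.42 (SE 0.07, adjusted p = 0.000156) for *Slc31a1*, below the 2-fold threshold in both.

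*Atp7b* (ENSMUSG00000006567; chromosome 8, 21992785 to 22060305, minus strand) had the widest range of the 3 transporters, from 3.06 to 49.9 CPM. Both ends of this range were liver libraries of day 7. There the libraries labelled Smad4 off were at 3.06 and 3.14 CPM and those labelled on at 35.1, 41.0 and 49.9 CPM, a difference of 3.55 in mean log2(CPM + 0.5) where the pooled SD of the libraries was 0.21. It was 3.56 without the paired-end library, 3.43 among the libraries without *mt-Co3* counts (1 against 2) and 3.79 among those with them (1 against 1). The other 4 members differed by 0.10 (*Slc31a1*), 0.18 (*Atp7a*), 0.51 (*Mt1*) and 1.02 (*Mt2*) in the same libraries. The *Mt2* value was -0.80 without the paired-end library, and the *Mt1* value was 0.24 without it and 0.06 without replicate 3 labelled on.

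Sums of cell type markers moved with *Atp7b* in the liver libraries of day 7. The 16 hepatocyte markers summed to 258 and 82.0 CPM in the libraries labelled off and to 1030 to 1057 CPM in those labelled on, with 239 and 79.5 CPM against 875 to 971 CPM of these sums in *Apob*. *Alb*, the defining serum albumin of hepatocytes, was at 1.64 and 0.785 CPM in the libraries labelled off and at 9.52, 2.64 and 13.8 CPM in those labelled on. Of the 16 markers, 12 and 15 lay under 1 CPM in the libraries labelled off and 5 to 8 in those labelled on, and 0 of the 16 were at 0 counts in any library labelled on. Other marker lists also separated by label there without overlap: leukocyte markers (64.3 and 127 CPM off, 248 to 270.3 on), lung epithelial markers (10.2 and 35.4 off, 151 to 327 on) and tumor epithelial markers (3788 and 12290 off, 15507 to 17013 on). Of the 8 lung epithelial markers, 3 passed the filter on low counts in liver on day 14, so these sums may rest on few genes. The tumor epithelial list marks the sorted tumor cells themselves. The part of these markers in the *Atp7b* difference was not tested, and in bulk libraries fewer cells of a type and less RNA per cell cannot be told apart.

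**Figure D1:**
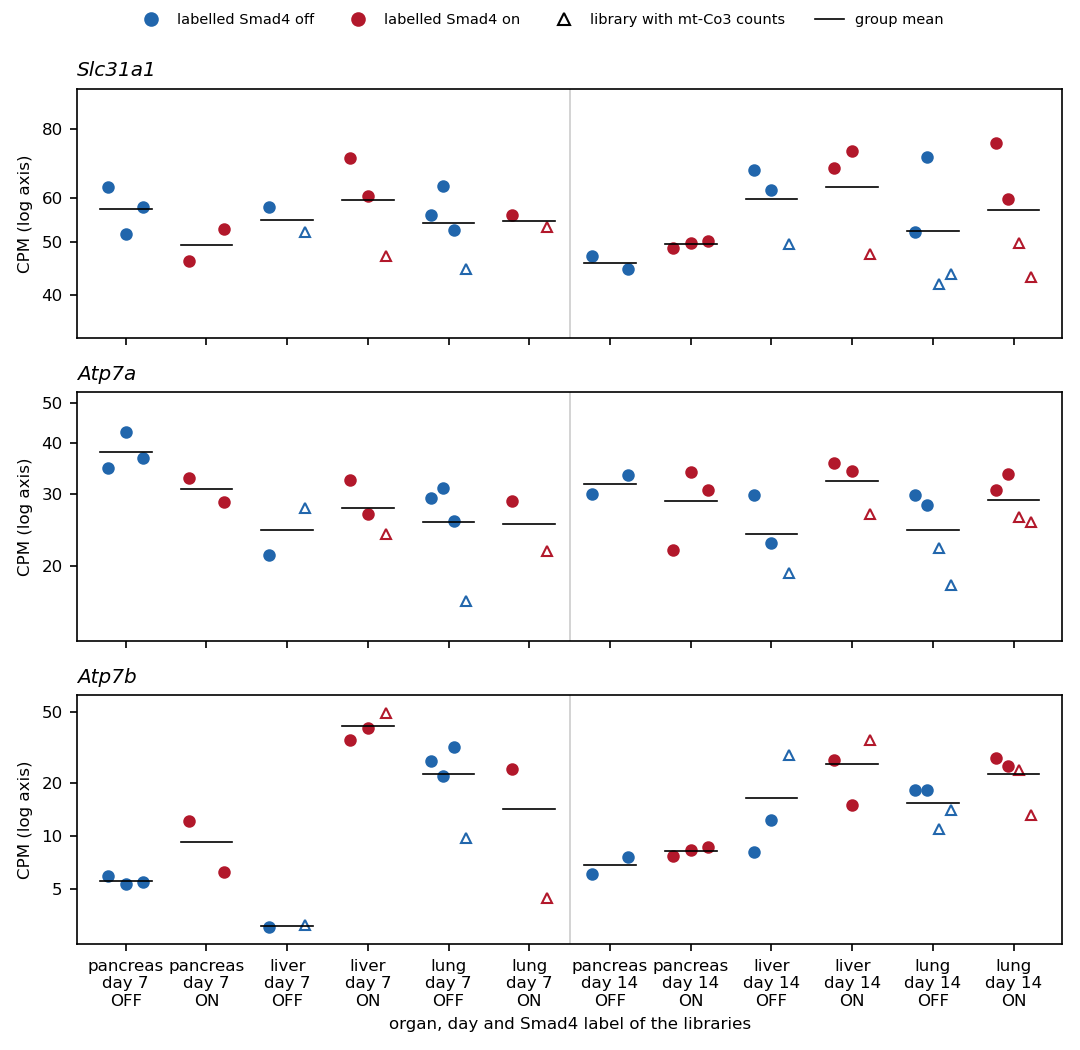
Levels of the 3 copper transporters in CPM (log axis) in each of 35 libraries, by organ, day and Smad4 label, with black lines at the group means and open triangles for the 10 libraries with *mt-Co3* counts. *Slc31a1* stays between 41.8 and 75.6 CPM, and *Atp7b* spans 3.06 to 49.9 CPM, with both extremes in liver on day 7.

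On day 14 *Atp7b* was lower in the pancreatic tumors than in either metastatic site. The pancreas libraries were at 6.09 and 7.64 CPM labelled off and at 7.76, 8.34 and 8.70 CPM labelled on. In liver the values were 8.07, 12.3 and 28.6 CPM labelled off and 26.9, 14.9 and 34.8 CPM labelled on. In lung they were 18.3, 18.1, 10.9 and 14.0 CPM labelled off and 27.8, 24.8, 23.6 and 13.2 CPM labelled on. Within either label, no pancreas library reached the lowest liver or lung library, while liver and lung overlapped.

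With *Smad4* labelled on, *Atp7b* was 1.59 higher on the log2 scale in liver than in pancreas (SE 0.40, adjusted p = 0.00989) and 1.40 higher in lung than in pancreas (SE 0.38, adjusted p = 0.0237), both called. These were 1 of 5 members called beside 13.4% and 7.68% of all genes tested in the same comparisons, so a call was not rare there, and both share the pancreas libraries. Labelled off, the log2 differences were 1.21 (SE 0.45, adjusted p = 0.0768) and 1.11 (SE 0.43, adjusted p = 0.0874), with 0 members called by edgeR beside 12.1% and 12.2% of all genes. There *Atp7b* alone had an unadjusted p under 0.05, and DESeq2 called it in both, among 2449 and 2412 genes. Liver and lung differed by 0.10 (SE 0.36, adjusted p = 0.928) labelled off and 0.18 (SE 0.36, adjusted p = 0.862) labelled on. These values turned among libraries without *mt-Co3* counts, to -0.80 (adjusted p = 0.111) and -0.35 (adjusted p = 0.568). Labelled off the value was -0.57 without liver replicate 3 and -0.05 without lung replicate 3, and labelled on it was -0.14 without liver replicate 3 and -0.03 without lung replicate 4. In these comparisons edgeR called 2.50% and 2.66% of all genes and 0 members, 0 members also had an unadjusted p under 0.05, and DESeq2 called 831 and 855 genes and 0 members.

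The call of liver against pancreas held under every alternative run, with log2 values from 1.29 to 1.86. That of lung against pancreas was lost without pancreas replicate 1, 2 or 3 labelled on (log2 1.35, 1.41 and 1.45; adjusted p = 0.0809, 0.0810 and 0.0769) and without lung replicate 1 or 3 labelled on (log2 1.29 and 1.40; adjusted p = 0.0554 and 0.0504). Among libraries without *mt-Co3* counts only, it was 1.64 (adjusted p = 0.00297), and lung against pancreas labelled off was 1.37 and also called (adjusted p = 0.00688). Liver against pancreas labelled off was called without liver replicate 1 labelled off (log2 1.54, adjusted p = 0.0206), and lung against pancreas labelled off without liver replicate 1 (1.15, adjusted p = 0.0444) or 3 (1.11, adjusted p = 0.0279), which enter that fit through its shared spread. Over these day 14 groups the fibroblast markers summed to 8783 to 17291 CPM in pancreas, 255 to 4307 in liver and 165 to 1595 in lung, and the tumor epithelial markers to 4295 to 8022, 14375 to 16874 and 7988 to 14464 CPM. In the same groups the 16 hepatocyte markers, mostly *Apob*, summed to 72.3 to 144 CPM in pancreas, 231 to 727 in liver and 146 to 518 in lung. Of 15 hepatocyte markers tested, 7 and 6 were called higher in liver and lung than in pancreas labelled off, 6 and 2 labelled on, and 0 lower, beside the shares of all genes given above. The part of these markers in the *Atp7b* differences was not tested.

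In the 5 comparisons of labels that were tested, *Atp7b* was not called. Its log2 fold change was 0.73 (SE 0.30, adjusted p = 0.213) in pancreas and -0.67 (SE 0.67, adjusted p = 0.998) in lung on day 7. The pancreas libraries of day 7 were at 5.94, 5.38 and 5.49 CPM labelled off and at 12.2 and 6.28 CPM labelled on, which do not overlap, and without the first library labelled on the fold change was 0.17. The lung libraries were at 26.7, 21.8, 31.7 and 9.78 CPM labelled off and at 23.8 and 4.45 CPM labelled on, and the lowest of each label had *mt-Co3* counts. Without that second lung library labelled on, the fold change was 0.07. On day 14 it was 0.29 in pancreas (SE 0.19), 0.62 in liver (SE 0.51) and 0.54 in lung (SE 0.25), with adjusted p = 0.369, 0.755 and 0.511.

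Ordered by group mean, *Atp7b* went from 3.10 CPM in liver on day 7 labelled off through 5.60, 6.87, 8.27 and 9.22 CPM in the pancreas groups (day 7 off, day 14 off, day 14 on, day 7 on). Then came 14.1 CPM (lung day 7 on), 15.3 (lung day 14 off), 16.3 (liver day 14 off), 22.3 (lung day 14 on), 22.5 (lung day 7 off), 25.5 (liver day 14 on) and 42.0 (liver day 7 on). Neighbours from 8.27 to 25.5 CPM overlapped in their libraries, while the lowest 3 groups and the highest group did not overlap with the group next above or below them. The 3 genes whose log2 CPM ran most like *Atp7b* over the 35 libraries, of 17546 compared, were *Rtn4rl1* (Pearson r 0.96), *Fgfr2* (0.94) and *Mlxipl* (0.92). The libraries share organ and sort, and no p is given. Both the order and the correlations include the liver libraries of day 7, on whose *Atp7b* values the choice rested.

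*Mt1* (ENSMUSG00000031765; chromosome 8, 94179082 to 94180327) and *Mt2* (ENSMUSG00000031762; chromosome 8, 94172664 to 94173568) lie side by side on the plus strand. Because both are known metal-responsive genes and their levels ran together in most libraries, their promoter windows from RefSeq (GRCm38.p6, 250 bases before to 50 after the RefSeq start, plus strand) are shown, with the cores of metal response elements, TGCACNC or TGCGCNC on either strand, in capitals. The windows are chr8:94178839-94179138 for *Mt1* and chr8:94172368-94172667 for *Mt2*, and the start of *Mt2* in the count table lies near the end of its window.
Mt1: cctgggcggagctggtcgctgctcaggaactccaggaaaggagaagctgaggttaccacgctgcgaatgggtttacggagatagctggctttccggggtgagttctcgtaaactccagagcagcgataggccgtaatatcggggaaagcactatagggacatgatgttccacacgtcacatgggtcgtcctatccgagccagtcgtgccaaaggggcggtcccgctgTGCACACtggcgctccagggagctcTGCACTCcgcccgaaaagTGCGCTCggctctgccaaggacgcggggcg
Mt2: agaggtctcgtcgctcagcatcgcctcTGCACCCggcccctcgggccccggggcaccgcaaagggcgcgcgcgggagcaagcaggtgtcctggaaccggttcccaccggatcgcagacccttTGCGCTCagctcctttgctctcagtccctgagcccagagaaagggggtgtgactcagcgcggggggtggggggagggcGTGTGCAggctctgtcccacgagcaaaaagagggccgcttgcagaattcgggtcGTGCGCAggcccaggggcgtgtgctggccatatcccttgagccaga
The *Mt1* window held 3 such cores and the *Mt2* window 4, beside 2 in *Atp7a*, 1 in *Atp7b* and 0 in *Slc31a1*. Of 32851 promoter windows of this length, 25.7% held at least 1 core and 1.97% at least 3. The core of an antioxidant response element, TGACNNNGC on either strand, was found once, in *Mt2*, and in 12.4% of all windows, and it overlapped none of the capitals. A match of letters does not show that a factor binds there.

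Per kilobase of transcript the metallothioneins had the highest medians of the 5 genes in the 25 libraries without *mt-Co3* counts. There the median level was 139.6 CPM per kb for *Mt1* and 93.5 for *Mt2*, against 13.5 for *Slc31a1*, 3.51 for *Atp7a* and 1.88 for *Atp7b*. In the 10 libraries with *mt-Co3* counts *Mt2* lay at 6.40 to 29.9 CPM per kb and overlapped with *Slc31a1* at 9.77 to 12.4. *Mt1* ran from 82.9 to 489 CPM over the 35 libraries (median 192) and *Mt2* from 3.76 to 192 CPM (median 33.5). The other members of the family were near 0: *Mt3* reached 2.66 CPM and *Mt4* 0.754 CPM, both in lung.

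The ratio of *Mt1* to *Mt2* counts split the libraries by the *mt-Co3* counts. It was 2.54 to 4.96 (median 3.41) in the 25 libraries without them and 20.6 to 79.6 (median 28.7) in the 10 with them, with no overlap. Over the liver and lung libraries with group in the fit, the log2 difference of *Mt2* was -3.00 in the libraries with *mt-Co3* counts against those without (SE 0.27, adjusted p = 3.468e-08), 1 of 5 members called beside 9.99% of all genes, whereas that of *Mt1* was 0.29 (SE 0.21, adjusted p = 0.301). The Pearson r of log2 CPM between the pair was 0.22 over all 35 libraries, 0.98 over the 25 without and 0.77 over the 10 with *mt-Co3* counts.

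*Mt2* is also the only member that shares exon bases with another gene. In GENCODE M21, 73.5% of its 588 exon bases lie in the antisense gene *Gm45774*, which had 6 to 49 counts per library. The sources used here do not state whether the counting used strand, so reads of *Mt2* and *Gm45774* may not be separable and *Mt2* levels are uncertain for that reason. Of the 152 tested genes with at least 50% of their exon bases antisense to another exon, 2.63% were called lower in the libraries with *mt-Co3* counts and 21.7% higher, against 3.27% and 6.71% of 17143 annotated genes. Of the 904 genes with transcripts of up to 700 bases, to which *Mt2* belongs, 12.5% were called lower and 41.4% higher. The cause of the *Mt2* difference was not tested.

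**Figure D2:**
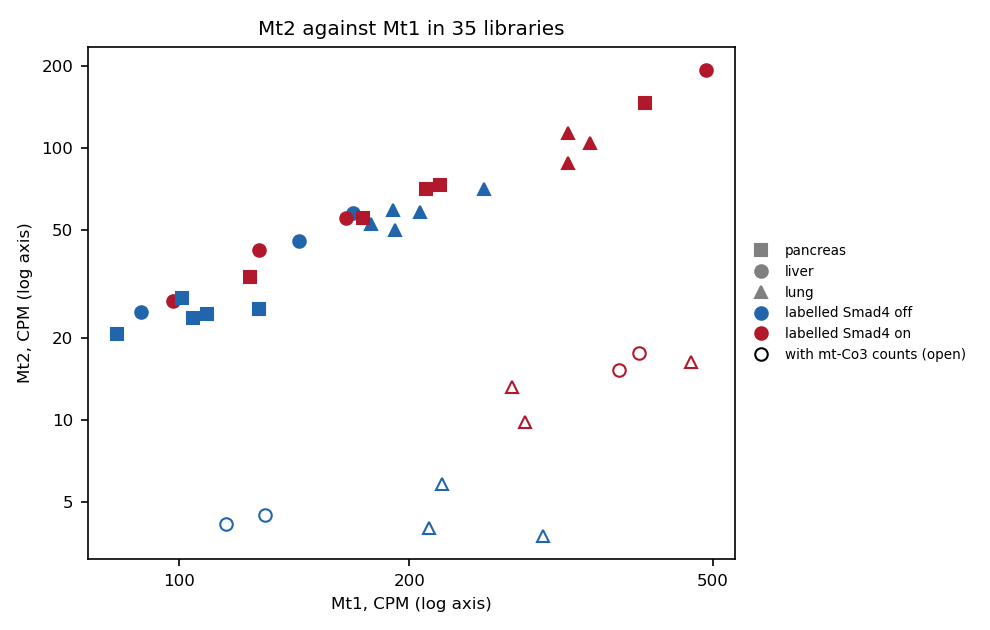
*Mt2* against *Mt1* in CPM (both axes log) in 35 libraries, with the marker shape for the organ, the color for the Smad4 label and open markers for the 10 libraries with *mt-Co3* counts. The filled and the open markers form separate bands, with *Mt1* to *Mt2* count ratios of 2.54 to 4.96 and 20.6 to 79.6.

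No pancreas library had *mt-Co3* counts, and there every library labelled Smad4 on had more *Mt1* and *Mt2* than those labelled off on the same day, with a call for *Mt2* on day 14 only. On day 14 *Mt2* was at 23.8 and 25.6 CPM labelled off and at 145, 70.2 and 73.1 CPM labelled on. *Mt1* was at 104 and 127 CPM labelled off and at 408, 210.2 and 219 CPM labelled on. For neither gene did the labels overlap, and replicate 1 labelled on was the highest for both.

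*Mt2* was called in this comparison (log2 1.98, SE 0.39, adjusted p = 0.0421) and *Mt1* missed the threshold (1.29, SE 0.35, adjusted p = 0.0873), so 1 of 5 members was called beside 4.64% of all genes. DESeq2 called both among 832 genes, with 1.28 and adjusted p = 0.0227 for *Mt1*. The *Mt2* call was lost without replicate 1 or 2 labelled off (log2 1.91 and 2.05, adjusted p = 0.185 and 0.183), with no filter on low counts (1.95, adjusted p = 0.166) and in a single fit of all 12 groups (1.96, adjusted p = 0.757), with little change in its size. On day 7 the pancreas values of *Mt2* were 20.6, 24.6 and 28.1 CPM labelled off and 33.5 and 55.2 CPM labelled on (log2 0.87, SE 0.23, adjusted p = 0.0998). *Mt1* went from 82.9, 109 and 101 CPM labelled off to 124 and 174 CPM labelled on (0.62, SE 0.17, adjusted p = 0.105). There edgeR called 0 members beside 1.33% of all genes, DESeq2 called 0 members and 517 genes, and *Atp7b*, *Mt1* and *Mt2* had an unadjusted p under 0.05.

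Sums of cell type markers, on day 14 also of the tumor cells themselves, separated by label in the same pancreas libraries. On day 14 the tumor epithelial markers summed to 4295 and 4713 CPM labelled off and 5609.7 to 8022 labelled on, the leukocyte markers to 153 and 233 against 258 to 276, and the lung epithelial markers to 19.6 and 21.6 against 32.6 to 65.7. On day 7 the fibroblast markers summed to 11805 to 16852 CPM labelled off and 23295 and 24253 labelled on, the acinar markers to 2248 to 3680.3 against 824 and 1147, and the lung epithelial markers to 8.15 to 10.7 against 20.5 and 27.3. Of the 8 lung epithelial markers, 3 were tested on day 14 and 2 on day 7, where *Sftpd* was called higher (log2 1.51, adjusted p = 0.0288). On day 7, 2 of 7 fibroblast markers were also called higher and 2 of 10 acinar markers lower, beside 1.33% of all genes. On day 14, 2 of 3 hepatocyte markers tested were called higher (*Ttr* 2.38, *Serpina1b* 2.96). So were 1 of 7 tumor epithelial and 1 of 7 fibroblast markers, while 1 of 10 acinar markers was lower, beside 4.64% of all genes. The part of these marker lists in the metallothionein differences was not tested.

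In the lung on day 14, *Mt2* separated by label within each kind of library. Those without *mt-Co3* counts were at 50.1 and 52.3 CPM labelled off and at 113 and 104 CPM labelled on. Those with them were at 4.02 and 3.76 CPM labelled off and at 16.3 and 13.2 CPM labelled on. Pooled over both kinds, the labels overlapped, and the log2 fold change of 1.17 (SE 1.03, adjusted p = 0.795) was not called.

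With the *mt-Co3* split as a covariate the lung difference of *Mt2* was 1.45 (SE 0.17, adjusted p = 0.00690) and was called, 1 of 5 members beside 0.861% of all genes. In lung on day 14 each replicate number was of 1 kind by *mt-Co3* counts, so a replicate block also takes up that split. With this block the value was also 1.45 (adjusted p = 0.0112), 1 of 5 members beside 0.739% of all genes, and is not an independent check. Among the libraries without *mt-Co3* counts alone (2 against 2) it was 1.08 (adjusted p = 0.0575). *Mt1* was at 192, 178, 212 and 299 CPM labelled off and at 323, 345, 468 and 272 CPM labelled on, with overlap (log2 0.67, SE 0.22, adjusted p = 0.357; 0.69 and adjusted p = 0.0871 with the covariate). Without covariate or block, edgeR called 0 members beside 0.0271% of all genes, DESeq2 called 0 members and 197 genes, and *Mt1* alone had an unadjusted p under 0.05. The leukocyte markers summed to 223 to 357 CPM labelled off and 378 to 739 labelled on in these lung libraries, without overlap, and their part was not tested.

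On day 7 the lung values of *Mt1* were 191, 251, 206 and 221 CPM labelled off and 323 and 284 CPM labelled on, which do not overlap. The log2 fold change was 0.50 (SE 0.18, adjusted p = 0.956), and edgeR called 0 members beside 0% of all genes, with *Mt1* alone at an unadjusted p under 0.05, while DESeq2 called 0 members and 100 genes. *Mt2* was at 59.1, 70.3, 58.0 and 5.82 CPM labelled off and at 87.6 and 9.83 CPM labelled on, and the last of each had *mt-Co3* counts. Its fold change was 0.02 (SE 1.01, adjusted p = 0.9995) without and 0.58 (SE 0.14, adjusted p = 0.374) with the covariate. The pooled value turned on the 2 libraries labelled on, at 0.85 without the one with *mt-Co3* counts and -2.22 without the other. In these lung libraries the fibroblast markers (419.7 to 1988 CPM off, 159 and 396 on), the hepatocyte markers (301 to 454 off, 102 and 287 on) and the acinar markers (5.68 to 12.3 off, 3.58 and 3.90 on) were lower labelled on without overlap, and their part was not tested.

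The liver libraries spread the most. On day 14 *Mt1* was at 143, 89.0 and 129.6 CPM labelled off and at 98.0, 489 and 399 CPM labelled on (log2 1.41, SE 0.57, adjusted p = 0.4996). *Mt2* was at 45.5, 25.0 and 4.50 CPM labelled off and at 27.4, 192 and 17.6 CPM labelled on (1.61, SE 1.10, adjusted p = 0.702). Replicate 1 labelled on lay within the range of the libraries labelled off for both genes, and without replicate 2 labelled on the *Mt2* value was -0.23. By edgeR 0 of 5 members were called beside 0% of all genes, DESeq2 called 0 members and 332 genes, and *Mt1* alone had an unadjusted p under 0.05. The leukocyte markers (138 to 206 CPM off, 239 to 511 on), hepatocyte markers (231 to 494 off, 675 to 727 on) and lung epithelial markers (80.7 to 122 off, 226 to 394 on) separated by label there, and their part was not tested. Of the 8 lung epithelial markers, 3 were tested in this comparison and 0 were called.

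On day 7 the liver libraries are again described only: *Mt1* was at 169 and 115 CPM labelled off and at 127, 165 and 376 CPM labelled on, and *Mt2* at 57.5 and 4.17 CPM labelled off and at 42.2, 55.0 and 15.2 CPM labelled on. The labels overlapped for both. In the libraries with *mt-Co3* counts the log2 difference of *Mt2* was 1.75 (1 against 1), and in those without it was -0.25 (1 against 2). Over all organs and days, the 5 libraries with *mt-Co3* counts labelled on were at 9.83 to 17.6 CPM of *Mt2* and the 5 labelled off at 3.76 to 5.82 CPM. Those without them overlapped, at 27.4 to 192 and 20.6 to 70.3 CPM.

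**Figure D3:**
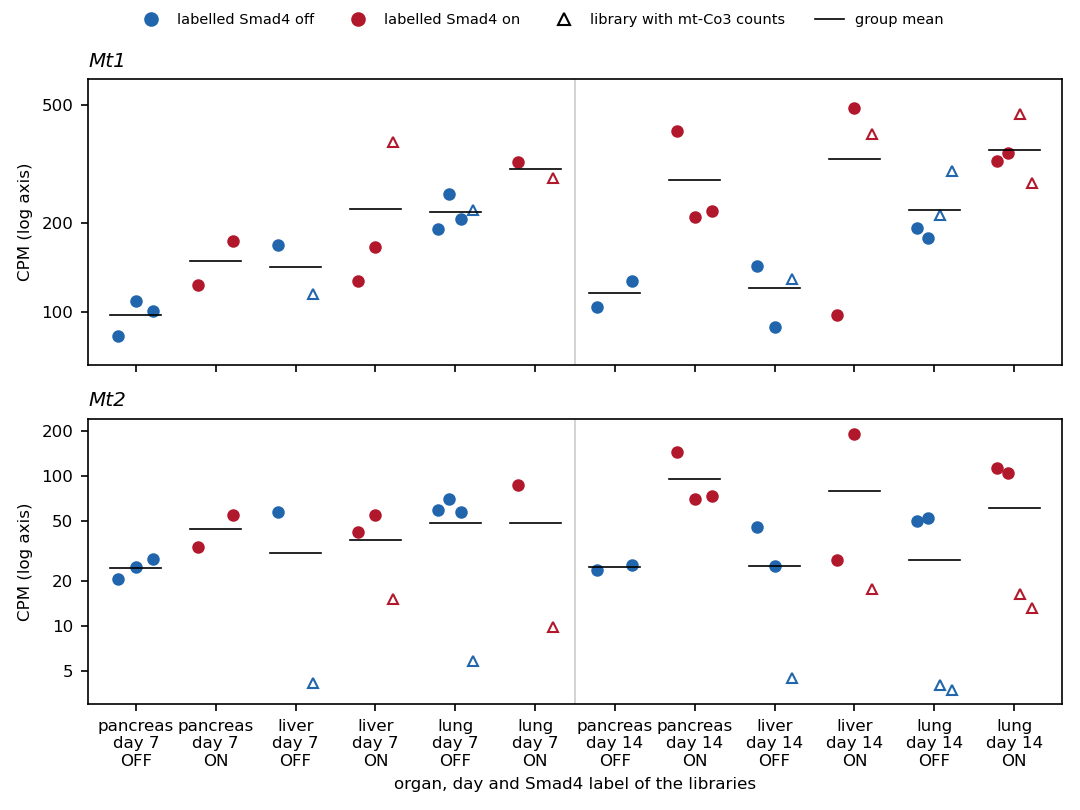
Levels of *Mt1* and *Mt2* in CPM (log axis) in each of 35 libraries, by organ, day and Smad4 label, with black lines at the group means and open triangles for libraries with *mt-Co3* counts. The 5 open *Mt2* points labelled on lie at 9.83 to 17.6 CPM and the 5 labelled off at 3.76 to 5.82 CPM, below every filled point.

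Whether the difference between labels itself differed among organs on day 14 was tested by the interaction. For *Mt1* it was 0.76 (SE 0.57) in liver minus lung, 0.18 (SE 0.65) in liver minus pancreas and -0.58 (SE 0.62) in lung minus pancreas. For *Mt2* the 3 values were 0.46, -0.31 and -0.76 (SE 1.48 to 1.68), and for *Atp7b* they were 0.09 (SE 0.51), 0.38 (SE 0.58) and 0.29 (SE 0.55). In edgeR the adjusted p was 1.00 for all members. Of the 5 members 0 were called by edgeR and 0 had an unadjusted p under 0.05, beside 0%, 0% and 0.00591% of all genes. DESeq2 called 7, 28 and 36 genes and 0 members.

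From day 7 to day 14 no member was called by edgeR in the organs tested (0 of 5 in each). In pancreas labelled on, *Mt2* was 1.13 higher on day 14 (SE 0.34, adjusted p = 0.110) and *Mt1* 0.92 higher (SE 0.30, adjusted p = 0.122), beside 0.378% of all genes called, and DESeq2 called *Mt2* among 228 genes. Labelled off, these differences were 0.01 (SE 0.34) and 0.24 (SE 0.29), beside 1.11% of all genes called by edgeR, and DESeq2 called 0 members and 264 genes. In lung edgeR called 0% of all genes labelled off and 0% labelled on, DESeq2 called 0 and 33 genes and 0 members in either, and 0 members had an unadjusted p under 0.05.

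**Figure D4:**
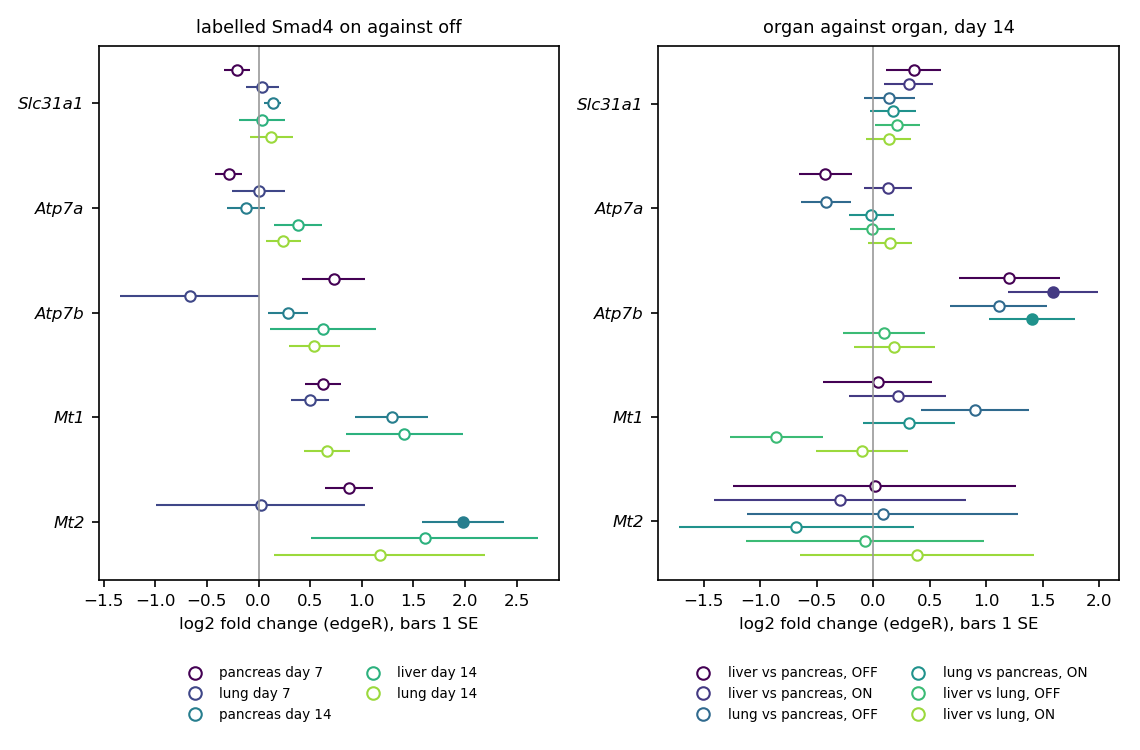
Log2 fold changes from edgeR with bars of 1 SE for the 5 genes, labelled Smad4 on against off in 5 organ and day pairs (left) and organ against organ on day 14 (right). Filled points passed both thresholds: *Mt2* in pancreas on day 14 (1.98) and *Atp7b* in liver (1.59) and lung (1.40) against pancreas labelled on.

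No other gene of copper handling was called between labels. Of the 17 genes of a list of copper chaperones, cytochrome oxidase assembly factors, metalloreductases and the remaining metallothioneins, 14 were tested in each comparison of labels and 0 were called by edgeR. Their median log2 fold change lay between -0.0030 in liver on day 14 and 0.13 in pancreas on day 7, beside -0.0021 and 0.01 over all genes, while single genes ran from -0.74 to 1.46 in liver on day 14 and from -0.90 to 0.74 in lung on day 7. On day 14 against pancreas 1 of 16 tested was called lower, the metalloreductase *Steap3*, in liver (-1.52 labelled off, -1.97 labelled on) and in lung (-1.98 and -2.05). Of all genes, 12.1% and 13.4% were called in liver and 12.2% and 7.68% in lung. The 7 genes of lipoylation and copper toxicity, among them the ferredoxin *Fdx1* and the lipoyl synthase *Lias*, had 0 calls in the 5 comparisons of labels and the 6 of organs.

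Copper enzymes of the secretory pathway, which receive their copper from the ATP7 pumps, changed in both directions in pancreas on day 14. Of 12 tested, the ferroxidase *Cp* (log2 1.20, adjusted p = 0.00092) and the extracellular superoxide dismutase *Sod3* (2.20, adjusted p = 0.00122) were higher in the libraries labelled on. The lysyl oxidases *Loxl2* (-1.10, adjusted p = 0.00103) and *Loxl3* (-1.26, adjusted p = 0.00832), which crosslink collagen, were lower. So 2 of 12 rose and 2 fell, beside 4.64% of all genes called. From day 7 to day 14 *Sod3* was also called lower in the pancreas libraries labelled off (-2.385, adjusted p = 0.0491), of which day 14 had 2. Against pancreas on day 14, liver had 2 of 12 higher and 5 lower under either label, and lung had 3 higher and 6 lower labelled off and 2 higher and 6 lower labelled on. Of all genes, 12.1% and 13.4% were called in liver against pancreas and 12.2% and 7.68% in lung against pancreas, labelled off and on. *Lox* was lower in all 4 of these comparisons (-2.63 and -3.21 in liver, -4.42 and -3.03 in lung, labelled off and on), beside the higher fibroblast marker sums of the pancreas libraries given above; their part was not tested.

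Among 25 genes of zinc transport and *Mtf1*, 0 of the 18 to 20 tested were called between labels. *Mtf1* itself had a median of 21.4 CPM in pancreas, 24.1 in liver and 24.2 in lung. On day 14 the zinc exporter *Slc30a1*, a known MTF1 target, was higher in liver than in pancreas labelled on (1.20, adjusted p = 0.00668), and the importer *Slc39a4* was higher there under both labels (1.30 and 1.24). The zinc transporters *Slc39a13* (-1.13 labelled off, -1.19 labelled on) and, labelled on, *Slc39a10* (-1.37) were lower. So 1 of 20 rose and 1 fell labelled off and 2 rose and 2 fell labelled on, beside 12.1% and 13.4% of all genes called. Of the oxidative stress genes, *Gclc*, a subunit of the enzyme that starts glutathione synthesis, was the only 1 of 6 called between labels in pancreas on day 14 (1.46, adjusted p = 0.00303), beside 4.64% of all genes. Against pancreas on day 14, 3 of 7 were higher in liver labelled off (*Gclc* 1.78, *Nqo1* 4.165, *Gclm* 1.19) and 2 labelled on (*Nqo1* 3.01, *Slc7a11* 2.13). In lung *Gclc* rose (1.98) and *Hmox1* fell (-1.62) labelled off, and 0 were called labelled on. The shares of all genes in these organ comparisons are those just given. *Hmox1* was also higher on day 14 than on day 7 in pancreas labelled off (1.18), beside 1.11% of all genes. Of the glucocorticoid response genes, 0 of 6 or 7 tested were called between labels, with a median log2 fold change of 0.05 in pancreas and -0.90 in liver on day 14, beside 0.02 and -0.0021 over all genes. In pancreas on day 7 it was 0.43, beside 0.01. The list summed there to 720 to 978 CPM labelled off and 1242 and 1254 labelled on, and its part was not tested. In lung the median was -0.16 on day 7 and -0.04 on day 14. Against pancreas on day 14, *Klf9* was called higher in liver labelled off (1.09) and in lung under both labels (1.41 and 1.02), and *Per1* in lung labelled on (1.43).

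Over the 25 libraries without *mt-Co3* counts, *Mt1* and *Mt2* were each other's closest gene among 17517 (Pearson r 0.98), followed for both by *Bend7* (0.81 and 0.82) and *Nrip2* (0.79 and 0.81). Over all 35 libraries the closest gene to *Mt1* was *Sdsl* (0.77) and to *Mt2* the gene model *Gm6394* (0.90). *Atp7a* ran most like *Atg2b* (0.85) and *Slc31a1* most like *Ugp2* (0.84). Without the libraries with *mt-Co3* counts, *Atp7a* ran most like *Nbas* (0.74), then *Atg2b* (0.72). There *Slc31a1* ran most like *Zfp654* (0.88), and *Ugp2* was not among its 3 closest genes. Among the 3 transporters the Pearson r was 0.42 for *Atp7a* with *Slc31a1*, 0.20 for *Atp7b* with *Slc31a1* and -0.03 for *Atp7a* with *Atp7b* over the 35 libraries, and 0.05, 0.43 and -0.01 over the 25 without *mt-Co3* counts.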

How the data were processed

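RNA-seq of sorted mKate2+ tumor cells was read from the deposited count table of 35 libraries and 53465 genes, with groups from the labels. Per the methods and the submitters' processing notes, the authors trimmed reads with Trimmomatic (0.36), aligned them with STAR (2.5.3a) to GRCm38 and made the raw counts with featureCounts (1.6.3). A stranded kit was used, and the strand setting of the counting is not given in the sources used here. CPM was computed with edgeR's TMM factors over all libraries.

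Genes were kept by filterByExpr (minimum count 10) and tested with edgeR (4.0.16, R 4.3.3) quasi-likelihood fits within each organ and day, all of day 14, or both days of an organ, with Benjamini-Hochberg adjustment over all genes. A call needed a fold change above 2 and adjusted p under 0.05. DESeq2 (1.42.0), other filters, a covariate for libraries with *mt-Co3* counts, a replicate block, a single fit of 12 groups and leaving out each library were alternatives, and the fits within libraries without *mt-Co3* counts and between both kinds of library were added after seeing the data. Only the fits of labels in lung and in pancreas on day 14 were tried on simulated counts. Those counts had the same spread for every gene and no *mt-Co3* split, so they do not cover that split.

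In lung on day 14, deviations from the group means correlated at 0.465 to 0.588 in all 4 pairs of libraries with the same replicate number. Each pair was also of 1 kind by *mt-Co3* counts, so this cannot tell a pairing by number from the *mt-Co3* split. The members and gene lists were chosen with earlier results of these data known. Named genes were the 5 members, *Smad4*, up to 4 called genes per list and comparison with the lowest adjusted p, and the 3 genes with the highest Pearson r. The labels do not say that each library came from another mouse, so p-values measure only the spread between these libraries, which may be technical. Protein motifs were not analysed here, and 1 allele of the tumor cells is not reported here. Promoter windows came from RefSeq (GRCm38.p6), where 5 of 5 members matched, and exon overlaps from GENCODE M21.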

Additional observations from a re-analysis of the deposited data

How the results depend on the processing

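The number of members called, out of 5, held under most alternatives. In pancreas on day 14, labelled on against off, it was 1 as reported, 2 by DESeq2, 0 with no filter on low counts, 0 in the single fit of 12 groups and 0 to 1 when each library was left out. In lung on day 14 it was 0 as reported and 1 with the replicate block or the *mt-Co3* covariate; the block changed no other call, and it could not be fitted to comparisons of organs or days, since its numbers are nested in an organ and day. Liver against pancreas labelled off went from 0 to 1 by DESeq2 and ranged from 0 to 1 without single libraries. Lung against pancreas labelled off went from 0 to 1 by DESeq2 and among libraries without *mt-Co3* counts, and from 0 to 1 without single libraries; labelled on it ranged from 0 to 1 without single libraries. Pancreas labelled on, day 14 against 7, went from 0 to 1 by DESeq2 and with no filter. The *Atp7b* difference in liver on day 7 was 3.79 in the 2 libraries with *mt-Co3* counts. The cause of these changes was not tested, apart from the fewer samples of the reduced fits. With an adjusted p alone and no fold threshold, the number was unchanged in the 18 comparisons of labels, organs, days and interactions, and went from 1 to 3 between libraries with and without *mt-Co3* counts. Signs differed from the reported ones in 129 of 1916 values of members under alternatives, none of them called in either where a test was run. In the untested liver libraries of day 7 a turned sign counted only if the value also moved by at least the pooled SD, so more signs turned there. The largest reported value among the 129 was the 1.61 of *Mt2* in liver on day 14.

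Groups held 2 to 4 libraries, and a library left as the only one of its group was assumed to vary like the others. At 3 counts the limit of a library was 0.0684 to 0.239 CPM, for counting error only, so depth limited no member.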
